A study of Mus musculus with 8 samples.

Results

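Rab genes encode small GTPases of membrane traffic. They were chosen by symbol, as every row named Rab followed by a number and at most 1 letter from a to d, and 57 such symbols stood in the deposited tables. The 42 with 1 FPKM or more in any group are described here, of 11200 genes at that level that both tables share. FPKM is the number of fragments per kilobase of transcript, relative to all mapped fragments, so it is a level per length and can be set side by side between genes. The 15 other Rab genes lay below 1 FPKM in every group, and 6 of them, Rab9b, Rab19, Rab26, Rab36, Rab39 and Rab42, were listed at 0 throughout. The highest value of the members nearest to the limit was 1.46 FPKM for Rab27b, 2.37 FPKM for Rab2b and 3.54 FPKM for Rab8b. Just below the limit, the highest value was 0.757 FPKM for Rab3b, 0.392 FPKM for Rab40b and 0.310 FPKM for Rab27a.

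RNA was sequenced from the mouse line ASZ, derived from basal cell carcinoma, with 2 libraries in each of 4 groups. The groups were ASZ cells expressing RasV12, an activated Ras, with CBD (RasV12 CBD) or with DMSO (RasV12 DMSO), and wild-type ASZ cells with CBD (ASZ CBD) or with DMSO (ASZ DMSO). All 4 groups come from the 1 line, so none is an independent tumour. The labels give CBD only as an abbreviation, give no dose or time, and do not name the Ras gene or the promoter that drives it.

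A Rab protein switches between a GTP-bound form, which recruits effectors to a membrane, and a GDP-bound form, which an inhibitor protein holds in the cytosol. Each Rab marks certain compartments, from the endoplasmic reticulum and Golgi to endosomes, lysosomes and the plasma membrane. Several serve the primary cilium. Rab11 recruits the exchange factor of Rab8, Rab8 carries membrane to the cilium, and Rab23 in mouse is a negative regulator of Hedgehog signalling, the pathway that drives basal cell carcinoma.

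Each group had 1 FPKM value per gene over its 2 libraries, so no SD and no value per library can be given. The SE beside a log2 ratio was worked back from the deposited p-value. The authors' test is not given, so which spread the p-values measure is unknown. The labels do not say whether the 2 libraries of a group came from separate cultures, so a spread between them may be only technical. The depth of the libraries is unknown, because the tables hold no fragment counts. All 5 basal keratinocyte markers were expressed, with a summed level of 9684 FPKM in RasV12 CBD, 8966 FPKM in RasV12 DMSO, 11068 FPKM in ASZ CBD and 10320 FPKM in ASZ DMSO. Krt5 and Krt14 carry that sum, and its members did not move together. Trp63 had 53.2 FPKM in RasV12 CBD, against 91.955 FPKM in RasV12 DMSO, and 20.7 FPKM in ASZ CBD, against 64.6 FPKM in ASZ DMSO, and Krt14 and Itga6 were also lower with CBD in both lines. Krt5 and Col17a1 were higher with CBD in both lines. Krt5 had 4583 FPKM in RasV12 CBD, against 3408 FPKM in RasV12 DMSO, and 6226 FPKM in ASZ CBD, against 4360 FPKM in ASZ DMSO. The 5 fibroblast markers lay below 1 FPKM in every group with a value, and Kdr, Cdh5, Ptprc and Cd3e were at or near 0. Pecam1 and Cd68, markers of endothelium and macrophages, had 9.44 to 23.3 and 8.99 to 53.8 FPKM across the groups. Of the 4 melanocyte markers, Mlana was at 0 and Dct near 0, and Pmel reached 1.14 FPKM. Tyr had 0.892 FPKM in RasV12 CBD, against 0.209 FPKM in RasV12 DMSO, and 4.11 FPKM in ASZ CBD, against 0.276 FPKM in ASZ DMSO. Cd68 was likewise higher with CBD in both lines, and the part of these markers in the Rab results was not tested. In bulk RNA, fewer cells with a transcript and less RNA per cell cannot be told apart.

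The Rab genes spanned more than 2 orders of magnitude in level. Rab7, the Rab of late endosomes and lysosomes, was the highest member under DMSO, at 256 FPKM in RasV12 DMSO and 249.7 FPKM in ASZ DMSO. Under CBD the highest member was Rab5c, an early endosome Rab, at 385 FPKM in RasV12 CBD and 275 FPKM in ASZ CBD. In each group the 3 highest members held a large part of the summed Rab level, with 37.1% in RasV12 CBD, 31.0% in RasV12 DMSO, 38.7% in ASZ CBD and 34.3% in ASZ DMSO. Rab27b, which serves regulated secretion, and Rab2b, a Golgi Rab, were the lowest members under DMSO, and Rab27b and Rab8b were the lowest under CBD. The summed Rab level was 2506 FPKM in RasV12 CBD, against 1833 FPKM in RasV12 DMSO, and 1754 FPKM in ASZ CBD, against 1505 FPKM in ASZ DMSO. As a share of all FPKM it was 0.380% in RasV12 CBD, against 0.419% in RasV12 DMSO, and 0.330% in ASZ CBD, against 0.406% in ASZ DMSO. The sum was thus higher and the share lower with CBD in both lines, because the FPKM of all genes also summed to more in the CBD columns. The ASZ sums, shares and order of members leave out Rab22a, which stood on 2 unlike rows of that table. On 1 of these rows it had 309.25 FPKM in ASZ DMSO, above Rab7.

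**Figure D1:**
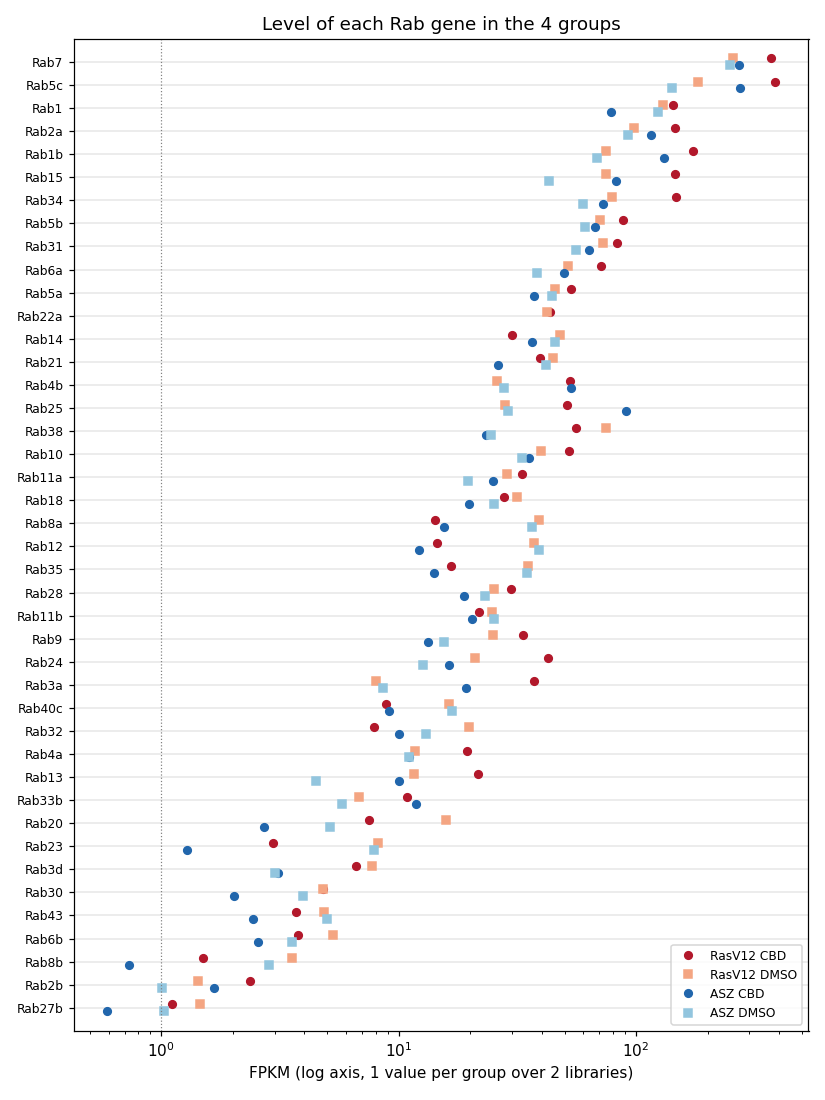
Level of each of the 42 Rab genes, in FPKM on a log axis, in RasV12 CBD, RasV12 DMSO, ASZ CBD and ASZ DMSO, with 1 point per group over its 2 libraries and a dotted line at 1 FPKM. Genes run down the page by level: Rab7 and Rab5c lie at the top, and Rab8a, Rab12 and Rab35 show both CBD points left of both DMSO points.

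With CBD, Rab genes changed in both directions in each line. At an adjusted p under 0.05, RasV12 cells had 9 rises and 9 falls among 42 tested, and 24 passed in neither direction. Of all 11070 genes tested there, 18.7% rose and 24.4% fell, so the shares of Rab genes called lay near those of all genes. In ASZ cells 8 of 41 tested rose and 10 fell, and 23 passed in neither direction. Of all 10696 genes tested in ASZ cells 14.0% rose and 42.4% fell. The median log2 ratio of the Rab genes was 0.20 in RasV12 cells, beside -0.01 for all genes, and -0.07 in ASZ cells, beside -0.44 for all genes.

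The split between rises and falls depended on how the CBD and DMSO columns were scaled. With the FPKM columns of a line scaled to equal sums, which lowers every log2 ratio by 0.59 in RasV12 cells and by 0.52 in ASZ cells, 1 Rab gene rose and 17 fell in RasV12 cells, and 1 rose and 21 fell in ASZ cells. Of all genes 2.29% rose and 42.5% fell in RasV12 cells under that scaling, and 4.08% rose and 59.2% fell in ASZ cells. With FPKM times transcript length scaled to equal sums, 3 rose and 12 fell in RasV12 cells, beside 6.62% and 36.2% of all genes, and 8 rose and 11 fell in ASZ cells, beside 11.0% and 45.9% of all genes. Both scalings lower every log2 ratio of a line, so they can only deepen a fall and are no check of the falls. Of the rises, only Rab3a in RasV12 cells and only Rab25 in ASZ cells were still called with equal FPKM sums.

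**Figure D2:**
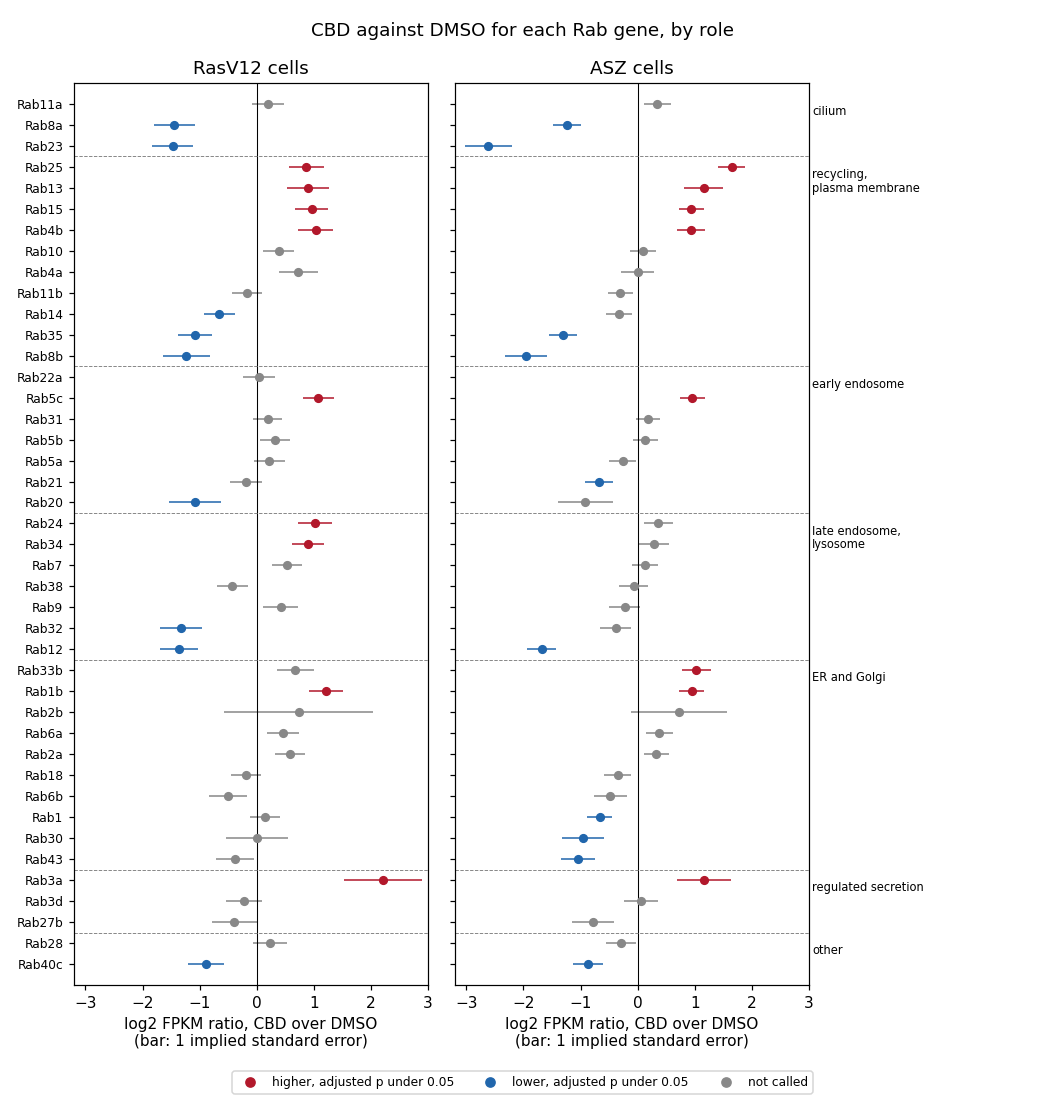
Log2 FPKM ratio of CBD to DMSO for each Rab gene, in RasV12 cells on the left and ASZ cells on the right, grouped by role, with bars of 1 implied standard error. Red points are rises and blue points falls (adjusted p under 0.05), and grey points passed in neither direction: 9 and 9 were called in RasV12 cells, and 8 and 10 in ASZ cells.

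Among the 3 ciliary traffic members, Rab8a and Rab23 fell with CBD in both lines and Rab11a passed the test in neither. Falls made up 24.4% of all genes in RasV12 cells and 42.4% in ASZ cells. Rab8a, which directs membrane to the cilium and to the plasma membrane, had 14.3 FPKM in RasV12 CBD, against 38.8 FPKM in RasV12 DMSO. The log2 ratio was -1.44, with an SE of at most 0.36 and an adjusted p of 3.2e-04 (Benjamini-Hochberg over all genes tested). In ASZ cells Rab8a had 15.5 FPKM with CBD, against 36.6 FPKM with DMSO (log2 ratio -1.24, SE 0.25, adjusted p 2.5e-06). Both CBD levels therefore lay below both DMSO levels.

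Rab23 was a low member and had the lowest log2 ratio of the family in each line. In RasV12 cells Rab8a, Rab12, Rab32 and Rab8b lay within the upper bound of its SE. Rab23 had 2.94 FPKM in RasV12 CBD, against 8.17 FPKM in RasV12 DMSO (log2 ratio -1.47, SE at most 0.36, adjusted p 3.2e-04). In ASZ cells it had 1.28 FPKM with CBD, against 7.86 FPKM with DMSO (log2 ratio -2.61, SE 0.42, adjusted p 2.9e-09), which is 6.11-fold lower. The DMSO levels of the lines differed little, and the CBD level was 2.29-fold higher in RasV12 cells before any centring.

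Rab11a, the recycling endosome Rab that works upstream of Rab8 in ciliary traffic, had 32.9 FPKM in RasV12 CBD, against 28.7 FPKM in RasV12 DMSO (log2 ratio 0.20, SE 0.28, adjusted p 0.59). In ASZ cells it had 24.9 FPKM with CBD, against 19.7 FPKM with DMSO (log2 ratio 0.34, SE 0.24, adjusted p 0.21). Rab3ip, which encodes Rabin8, the exchange factor that Rab11 recruits to activate Rab8, had 10.8 FPKM in RasV12 CBD, against 8.27 FPKM in RasV12 DMSO (adjusted p 0.33). In ASZ cells Rab3ip had 9.12 FPKM with CBD, against 8.21 FPKM with DMSO (adjusted p 0.65).

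The windows around the start sites of Rab8a and Rab23 are printed because these 2 members fell in both lines. They are taken from the RefSeq promoter table on GRCm38.p6, from 250 bases before to 50 bases after the start, at chr8:72160950-72161249 on the plus strand and chr1:33719646-33719945 on the plus strand (the first of 2 windows listed for Rab23). Capitals mark a motif found by the search described further on, here the E-box CACGTG in Rab23, and Rab8a held none of the motifs searched.
Rab8a: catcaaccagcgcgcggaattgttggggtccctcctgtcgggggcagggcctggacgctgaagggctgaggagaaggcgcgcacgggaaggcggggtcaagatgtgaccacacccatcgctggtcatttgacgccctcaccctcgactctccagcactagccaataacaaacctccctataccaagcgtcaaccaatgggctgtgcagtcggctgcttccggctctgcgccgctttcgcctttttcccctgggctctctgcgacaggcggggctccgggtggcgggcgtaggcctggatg
Rab23: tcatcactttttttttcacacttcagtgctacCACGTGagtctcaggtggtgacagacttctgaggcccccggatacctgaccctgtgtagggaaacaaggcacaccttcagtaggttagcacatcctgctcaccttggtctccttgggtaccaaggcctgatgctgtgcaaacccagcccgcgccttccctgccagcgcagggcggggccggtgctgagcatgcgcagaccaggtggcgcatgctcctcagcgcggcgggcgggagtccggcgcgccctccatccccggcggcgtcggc

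The 12 members that serve recycling and the polarised plasma membrane, Rab8a and Rab11a included, were split. In RasV12 cells 4 rose and 4 fell, beside 18.7% and 24.4% of all genes. In ASZ cells 4 rose and 3 fell, beside 14.0% and 42.4% of all genes. The same 4 genes rose in both lines: Rab25, Rab13, Rab15 and Rab4b. Rab25, an epithelial relative of Rab11, had 51.4 FPKM in RasV12 CBD, against 28.2 FPKM in RasV12 DMSO (log2 ratio 0.87, SE 0.31, adjusted p 0.015). In ASZ cells Rab25 had 90.4 FPKM with CBD, against 28.8 FPKM with DMSO (log2 ratio 1.65, SE 0.24, adjusted p 4.0e-11). The lines had nearly equal Rab25 levels under DMSO, and ASZ CBD stood above the other 3 groups.

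Rab13, which acts at tight junctions of epithelia, had 21.5 FPKM in RasV12 CBD, against 11.6 FPKM in RasV12 DMSO (log2 ratio 0.89, SE 0.37, adjusted p 0.038). In ASZ cells it had 10.03 FPKM with CBD, against 4.50 FPKM with DMSO (log2 ratio 1.16, SE 0.34, adjusted p 0.0020). Rab4b, a Rab of fast endosomal recycling, had 52.8 FPKM in RasV12 CBD, against 25.9 FPKM in RasV12 DMSO (log2 ratio 1.03, SE 0.30, adjusted p 0.0029), and 53.1 FPKM in ASZ CBD, against 27.8 FPKM in ASZ DMSO (adjusted p 3.6e-04). Rab15, a Rab of early and recycling endosomes, had 146 FPKM in RasV12 CBD, against 75.0 FPKM in RasV12 DMSO (adjusted p 0.0036), and 82.6 FPKM in ASZ CBD, against 43.1 FPKM in ASZ DMSO (adjusted p 5.6e-05). For these 3 genes the CBD level was 1.86 to 2.23 times the DMSO level of the same line.

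Of the recycling members that fell, Rab8b, the close relative of Rab8a, had 1.504 FPKM in RasV12 CBD, against 3.54 FPKM in RasV12 DMSO (log2 ratio -1.24, SE 0.41, adjusted p 0.0086). In ASZ cells it had 0.732 FPKM with CBD, against 2.84 FPKM with DMSO (log2 ratio -1.96, SE 0.36, adjusted p 3.5e-07), so all 4 of its levels were low. Rab35, which serves rapid recycling to the plasma membrane, had 16.5 FPKM in RasV12 CBD, against 35.0 FPKM in RasV12 DMSO (log2 ratio -1.08, SE 0.29, adjusted p 0.0011), and 14.1 FPKM in ASZ CBD, against 34.7 FPKM in ASZ DMSO (log2 ratio -1.30, SE 0.25, adjusted p 7.8e-07). Rab14, which works between the Golgi and endosomes, fell in RasV12 cells, at 30.1 FPKM with CBD, against 47.6 FPKM with DMSO (adjusted p 0.036). In ASZ cells Rab14 had 36.3 FPKM with CBD, against 45.4 FPKM with DMSO (adjusted p 0.21). Rab4a, Rab10 and Rab11b passed the test in neither line.

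Of the 7 early endosome members, which handle freshly internalised cargo, 1 rose and 1 fell in RasV12 cells, and of the 6 tested in ASZ cells 1 rose and 1 fell. Shares of all genes that rose and fell were 18.7% and 24.4% in RasV12 cells and 14.0% and 42.4% in ASZ cells. Rab5c, 1 of the 3 Rab5 forms that govern fusion of early endosomes, rose in both. It had 385 FPKM in RasV12 CBD, against 182 FPKM in RasV12 DMSO (log2 ratio 1.08, SE at most 0.27, adjusted p 3.2e-04), and 275 FPKM in ASZ CBD, against 142 FPKM in ASZ DMSO (log2 ratio 0.96, SE 0.22, adjusted p 3.3e-05). Rab20 fell in RasV12 cells, at 7.49 FPKM with CBD, against 15.9 FPKM with DMSO (adjusted p 0.040), and had 2.71 FPKM in ASZ CBD, against 5.12 FPKM in ASZ DMSO (adjusted p 0.096). Rab21, which is linked to integrin traffic, fell in ASZ cells, at 26.1 FPKM with CBD, against 41.8 FPKM with DMSO (adjusted p 0.011), and had 39.4 FPKM in RasV12 CBD, against 44.7 FPKM in RasV12 DMSO (adjusted p 0.62). Rab5a, Rab5b and Rab31 passed in neither line.

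Rab22a had 43.3 FPKM in RasV12 CBD, against 42.1 FPKM in RasV12 DMSO (adjusted p 0.92). The authors' deposited table for ASZ cells lists the symbol on 2 rows, 1 with 25.3 FPKM in ASZ CBD against 35.6 FPKM in ASZ DMSO (deposited p 0.0433) and 1 with 197.76 FPKM in ASZ CBD against 309.25 FPKM in ASZ DMSO (deposited p 0.673). It was left out of the ASZ comparison for that reason.

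The start-site windows of Rab25 and Rab5c are printed because Rab25 showed the largest rise of ASZ cells and Rab5c was the highest member under CBD. They lie at chr3:88548230-88548529 on the minus strand and chr11:100738166-100738465 on the minus strand of the same build and are written along the gene's strand. Capitals in Rab25 mark the cyclic AMP response element TGACGTCA, and Rab5c held none of the motifs searched.
Rab25: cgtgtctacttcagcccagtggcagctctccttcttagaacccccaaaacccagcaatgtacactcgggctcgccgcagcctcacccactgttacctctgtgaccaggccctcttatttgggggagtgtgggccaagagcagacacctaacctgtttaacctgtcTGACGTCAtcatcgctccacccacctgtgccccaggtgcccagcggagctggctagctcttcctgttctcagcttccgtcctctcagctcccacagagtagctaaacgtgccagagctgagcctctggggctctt
Rab5c: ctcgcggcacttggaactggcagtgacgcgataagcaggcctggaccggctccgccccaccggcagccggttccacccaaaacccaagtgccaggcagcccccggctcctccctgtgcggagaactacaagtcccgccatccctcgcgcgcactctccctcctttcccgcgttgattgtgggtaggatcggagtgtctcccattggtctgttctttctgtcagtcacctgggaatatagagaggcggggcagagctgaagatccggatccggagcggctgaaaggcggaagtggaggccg

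Of the 7 members of late endosomes, lysosomes and related organelles, 2 rose and 2 fell in RasV12 cells, beside 18.7% and 24.4% of all genes. For ASZ cells 0 rose and 1 fell, beside 14.0% and 42.4% of all genes. Rab12, which acts in traffic to lysosomes, fell in both lines. It had 14.5 FPKM in RasV12 CBD, against 37.1 FPKM in RasV12 DMSO (log2 ratio -1.36, SE at most 0.33, adjusted p 3.2e-04), and 12.2 FPKM in ASZ CBD, against 39.0 FPKM in ASZ DMSO (log2 ratio -1.68, SE 0.25, adjusted p 3.6e-10). Both CBD levels lay far below both DMSO levels.

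Rab32, which serves the biogenesis of lysosome-related organelles, fell in RasV12 cells, at 7.88 FPKM with CBD, against 19.8 FPKM with DMSO (log2 ratio -1.33, SE 0.36, adjusted p 0.0013). In ASZ cells Rab32 had 9.997 FPKM with CBD, against 13.1 FPKM with DMSO (adjusted p 0.21). Rab24, linked to autophagy, rose in RasV12 cells, at 42.6 FPKM with CBD, against 21.1 FPKM with DMSO (adjusted p 0.0036), and had 16.3 FPKM in ASZ CBD, against 12.7 FPKM in ASZ DMSO (adjusted p 0.23). Rab34, which positions lysosomes and also acts in cilium formation, rose in RasV12 cells, at 148 FPKM with CBD, against 79.1 FPKM with DMSO (adjusted p 0.0044), and had 72.5 FPKM in ASZ CBD, against 59.7 FPKM in ASZ DMSO (adjusted p 0.40). These calls in 1 line alone do not show that the lines differ, which was tested separately. Rab7, Rab9 and Rab38 passed in neither line. For Rab7 the adjusted p was 0.089 in RasV12 cells, at 369.96 FPKM with CBD against 256 FPKM with DMSO.

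Of the 10 members of the endoplasmic reticulum and Golgi, 1 rose and 0 fell in RasV12 cells, beside 18.7% and 24.4% of all genes. For ASZ cells 2 rose and 3 fell, beside 14.0% and 42.4% of all genes. The Rab1 forms, which carry cargo from the endoplasmic reticulum to the Golgi, gave different values. The symbol Rab1 is a RefSeq synonym of 2 genes and was given no transcript length, so neither its value nor its contrast with Rab1b could be set against length. Rab1b had 174 FPKM in RasV12 CBD, against 75.0 FPKM in RasV12 DMSO (log2 ratio 1.22, SE at most 0.30, adjusted p 3.2e-04), and 132 FPKM in ASZ CBD, against 68.3 FPKM in ASZ DMSO (log2 ratio 0.95, SE 0.22, adjusted p 5.2e-05). Rab1 had 143 FPKM in RasV12 CBD, against 129.5 FPKM in RasV12 DMSO (adjusted p 0.70), and fell in ASZ cells, at 78.5 FPKM with CBD, against 124 FPKM with DMSO (log2 ratio -0.66, SE 0.22, adjusted p 0.0060).

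Rab33b, a Golgi Rab that binds an autophagy factor, rose in ASZ cells, at 11.8 FPKM with CBD, against 5.79 FPKM with DMSO (log2 ratio 1.03, SE 0.25, adjusted p 1.6e-04). In RasV12 cells it had 10.8 FPKM with CBD, against 6.78 FPKM with DMSO (adjusted p 0.071). Rab30 and Rab43, both Golgi Rabs, fell in ASZ cells. Rab30 had 2.03 FPKM in ASZ CBD, against 3.95 FPKM in ASZ DMSO (adjusted p 0.018), and Rab43 had 2.42 FPKM in ASZ CBD, against 5.004 FPKM in ASZ DMSO (adjusted p 8.8e-04). In RasV12 cells the adjusted p was 0.99 for Rab30 and 0.35 for Rab43. Rab2a, Rab2b, Rab6a, Rab6b and Rab18 passed in neither line.

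Of the 3 members of regulated secretion, Rab3a rose in both lines and 0 fell. Rises and falls made up 18.7% and 24.4% of all genes in RasV12 cells and 14.0% and 42.4% in ASZ cells. Rab3a, known from synaptic vesicles, had 37.3 FPKM in RasV12 CBD, against 8.04 FPKM in RasV12 DMSO (log2 ratio 2.21, SE 0.68, adjusted p 0.0046), and 19.2 FPKM in ASZ CBD, against 8.55 FPKM in ASZ DMSO (log2 ratio 1.17, SE 0.47, adjusted p 0.027). Its rise of 4.64-fold in RasV12 cells was the largest of the family in either line and also had a wide error. Rab3d and Rab27b passed in neither line, with adjusted p-values of 0.60 and 0.42 in RasV12 cells and of 0.89 and 0.057 in ASZ cells. Of the 2 members placed in no role list, Rab40c, part of a ubiquitin ligase, fell in both lines. It had 8.81 FPKM in RasV12 CBD, against 16.3 FPKM in RasV12 DMSO (adjusted p 0.017), and 9.12 FPKM in ASZ CBD, against 16.7 FPKM in ASZ DMSO (adjusted p 0.0021). Rab28 passed in neither.

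Of 10 pairs of close relatives, some gave different log2 ratios and others did not differ beyond their error. A difference between 2 genes of a line does not depend on the scaling of the columns, but it can move with transcript length. Rab1b exceeded Rab1 by 1.08 (SE 0.40) in RasV12 cells and by 1.61 (SE 0.31) in ASZ cells on the log2 scale. Rab5c exceeded Rab5a by 0.86 (SE 0.38) in RasV12 cells and by 1.22 (SE 0.32) in ASZ cells, and by 0.74 and 0.97 with the length bin medians subtracted. Rab5c exceeded Rab5b by 0.76 (SE 0.38) in RasV12 cells and by 0.83 (SE 0.31) in ASZ cells, and by 0.38 and 0.12 with length subtracted. Rab3a, with a transcript of 1556 nt, exceeded Rab3d, with 3886 nt, by 2.43 (SE 0.75) in RasV12 cells and by 1.11 (SE 0.56) in ASZ cells, and by 1.83 and 0.11 with length subtracted. Rab6b lay at -0.96 (SE 0.43) from Rab6a in RasV12 cells and at -0.85 (SE 0.37) in ASZ cells, and at -0.73 and -0.52 with length subtracted. Rab4b exceeded Rab4a by 0.30 (SE 0.46) in RasV12 cells and by 0.94 (SE 0.38) in ASZ cells, and by 0.12 and 0.54 with length subtracted. Rab8b and Rab8a lay close in RasV12 cells, with a difference of 0.21 (SE 0.54), and at -0.72 (SE 0.44) in ASZ cells. Rab11b lay at -0.37 (SE 0.39) from Rab11a in RasV12 cells and at -0.65 (SE 0.33) in ASZ cells, and at 0.35 and 0.49, with the sign turned, once length was subtracted. Rab5b exceeded Rab5a by 0.10 (SE 0.38) in RasV12 cells and by 0.40 (SE 0.32) in ASZ cells, and by 0.36 and 0.85 with length subtracted. Rab2b exceeded Rab2a by 0.16 (SE 1.33) in RasV12 cells and by 0.40 (SE 0.86) in ASZ cells, and by 0.42 and 0.80 with length subtracted. The pairs were picked as relatives and not tested, and how the authors' counting split reads between near-identical stretches is not given.

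Transcript length moved with the response. The length of a gene is that of its longest protein-coding transcript, which need not be the one expressed. A gene may therefore belong to another length bin than the one used. Over the 41 Rab genes with a length in RasV12 cells, Spearman's rho between length and log2 ratio was -0.49 (Pearson's r -0.41), beside -0.34 (-0.32) over 10723 genes. Over 40 Rab genes in ASZ cells it was -0.50 (-0.49), beside -0.53 (-0.48) over 10371 genes. These are descriptions across genes of the same libraries. In ASZ cells 5 of the 6 Rab genes of 4287 to 5097 nt fell, in a length bin in which 60.8% of all genes fell, and in RasV12 cells 3 of 6 fell in the like bin, beside 35.2% of all genes. The part of transcript length in the Rab results was not tested beyond the subtraction that follows.

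With the median of all genes in the same of 10 length bins subtracted, 6 of 41 Rab genes rose and 9 fell in RasV12 cells, beside 17.0% and 20.5% of all genes. In ASZ cells 14 of 40 rose and 6 fell, beside 22.9% and 24.9% of all genes. Rab23, Rab12, Rab35 and Rab40c still fell in both lines. Rab8a, with a transcript of 4550 nt, kept its fall in RasV12 cells, at -1.10 with an adjusted p of 0.0093, and lost it in ASZ cells, at -0.25 with an adjusted p of 0.42. Rab8b lost its fall in RasV12 cells (-0.89, adjusted p 0.071) and kept it in ASZ cells (-0.97, adjusted p 0.019). Of the genes that rose, Rab1b, Rab5c and Rab15 still rose in both lines. Rab4b lost its rise in both, at 0.45 (adjusted p 0.24) in RasV12 cells and 0.28 (adjusted p 0.35) in ASZ cells. Rab13 lost it in RasV12 cells (0.49, adjusted p 0.30) and kept it in ASZ cells (0.91, adjusted p 0.021). Rab3a kept it in RasV12 cells (1.81, adjusted p 0.025) and lost it in ASZ cells (0.92, adjusted p 0.098). Rab25, with a transcript of 1081 nt, still rose in ASZ cells (1.00, adjusted p 1.4e-04) but not in RasV12 cells (0.28, adjusted p 0.49). Rab11a, not called as deposited, passed as a rise in ASZ cells under this subtraction, at 0.55 with an adjusted p of 0.046. Rab3d, Rab5b, Rab6a, Rab10, Rab11b, Rab18 and Rab31 were likewise added as rises in ASZ cells, and Rab20 as a fall. In RasV12 cells Rab22a and Rab33b were added as rises and Rab38 as a fall.

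**Figure D3:**
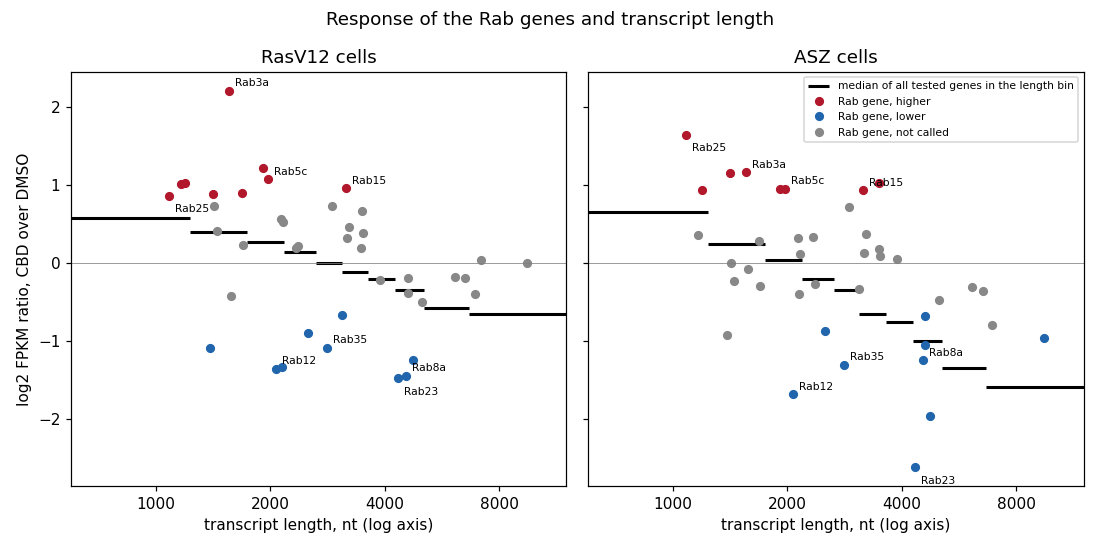
Log2 FPKM ratio of CBD to DMSO against transcript length in nt (log axis) for the Rab genes, in RasV12 cells on the left and ASZ cells on the right, with black bars at the median of all tested genes in each of 10 length bins. The bars step down with length in both lines, to -0.66 in RasV12 cells and -1.58 in ASZ cells in the longest bin, and Rab12 and Rab23 lie below the bar of their bin in both.

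Of the 41 Rab genes tested in both lines, 7 rose in both (Rab1b, Rab3a, Rab4b, Rab5c, Rab13, Rab15 and Rab25) and 6 fell in both (Rab8a, Rab8b, Rab12, Rab23, Rab35 and Rab40c). Calls in opposite directions numbered 0, and 18 passed in neither line. The like counts over all genes were not worked out, so this agreement is not shown to be particular to Rab genes. In each line many genes were called, with 18.7% rising and 24.4% falling in RasV12 cells and 14.0% and 42.4% in ASZ cells. The difference of the 2 responses, RasV12 minus ASZ, was called for 0 of 41 Rab genes by a two-sided normal test on the implied errors, with the Benjamini-Hochberg adjustment made over 10399 genes. Of all those genes 9.23% were called. Before adjustment 2251 of the 10399 genes had a p under 0.05, and 4 of the 41 Rab genes did. These Rab genes were Rab1 (difference 0.80, SE 0.34, p 0.0198), Rab32 (-0.94, SE 0.45, p 0.0375), Rab23 (1.14, SE at most 0.55, p at most 0.0393) and Rab25 (-0.78, SE 0.39, p 0.0442). The lowest adjusted p of the family was 0.13, for Rab1. For Rab1b, Rab5c, Rab8a, Rab12 and Rab23 the RasV12 SE is an upper bound, so the test may miss a difference in these genes. The p-values of the lines also differ in kind, as those of RasV12 cells stand in steps of 5e-05. The errors implied for the lines may therefore not measure the same spread. The median difference was 0.19 for the Rab genes and 0.41 for all genes, and 29 of 41 Rab genes had the higher log2 ratio in RasV12 cells. Across the 41 genes the log2 ratios of the 2 lines had a Pearson's r of 0.87 and a Spearman's rho of 0.89, as a description across genes. No such value was worked out over all genes.

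**Figure D4:**
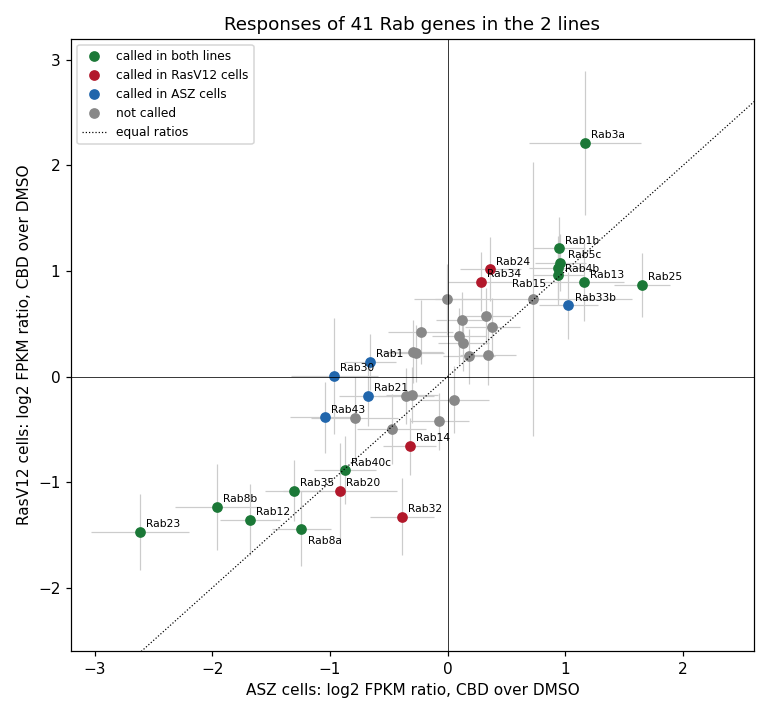
Log2 FPKM ratio of CBD to DMSO in RasV12 cells (vertical axis) against that in ASZ cells (horizontal axis) for the 41 Rab genes tested in both, with grey bars of 1 implied standard error and a dotted line of equal ratios. The 7 genes that rose in both lines lie at the upper right and the 6 that fell in both at the lower left.

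The levels of the 2 lines came from tables processed separately, so they are set side by side without a test, as a difference of log2(FPKM + 1) less the median over 11200 genes. Under DMSO, FPKM of the Rab genes had a Pearson's r of 0.97 and a Spearman's rho of 0.96 between the lines over 41 genes. On that centred scale 3 of 41 Rab genes were at least 2-fold higher in RasV12 DMSO than in ASZ DMSO and 0 were as much lower, beside 3.93% and 2.12% of all genes. They were Rab38, a Rab of melanosomes and other lysosome-related organelles, with 74.7 FPKM in RasV12 DMSO, against 24.5 FPKM in ASZ DMSO, Rab20 with 15.9 FPKM in RasV12 DMSO, against 5.12 FPKM in ASZ DMSO, and Rab13 with 11.6 FPKM in RasV12 DMSO, against 4.50 FPKM in ASZ DMSO. Under CBD 0 were at least 2-fold higher in RasV12 CBD and 1 was as much lower, beside 4.88% and 3.42% of all genes. It was Rab25, with 51.4 FPKM in RasV12 CBD, against 90.4 FPKM in ASZ CBD. The median centred difference was 0.05 under DMSO and -0.02 under CBD.

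Genes that control or read Rab proteins were followed on a list of 120, of which 95 were tested in RasV12 cells and 93 in ASZ cells. In RasV12 cells 11 rose and 39 fell, beside 18.7% and 24.4% of all genes, with a median log2 ratio of -0.52. In ASZ cells 5 rose and 57 fell, beside 14.0% and 42.4% of all genes, with a median of -0.93. These medians lie below those of all genes, -0.01 and -0.44. The listed genes are long, with a median transcript of 4868 nt among those tested in RasV12 cells and 4657 nt in ASZ cells. After subtraction of the length bin median 15 rose and 22 fell in RasV12 cells, where 17.0% and 20.5% of all genes did, and 23 rose and 23 fell in ASZ cells, where 22.9% and 24.9% of all genes did. The shares of regulators called then lay near those of all genes.

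The sublist of dissociation inhibitors, escort proteins and prenylation enzymes, which load Rab proteins with lipid and shuttle them, had 4 rises and 1 fall among 8 in RasV12 cells and 2 rises and 3 falls in ASZ cells, and with length subtracted 2 and 0 in RasV12 cells and 4 and 1 in ASZ cells. Rabac1, a Golgi membrane protein that binds prenylated Rabs, had 208 FPKM in ASZ CBD, against 92.5 FPKM in ASZ DMSO (log2 ratio 1.17, adjusted p 1.2e-06). It also rose in RasV12 cells, at 236 FPKM with CBD, against 128 FPKM with DMSO (log2 ratio 0.89, adjusted p 0.0041). Exchange factors, which load GTP, had 2 rises and 13 falls of 24 in RasV12 cells and 1 rise and 16 falls of 22 in ASZ cells, and with length subtracted 3 and 5 in RasV12 cells and 4 and 6 in ASZ cells. GTPase-activating proteins, which end the active state, had 4 rises and 14 falls of 34 in RasV12 cells and 0 rises and 20 falls of 34 in ASZ cells, and with length subtracted 7 and 10 in RasV12 cells and 6 and 8 in ASZ cells. Effectors had 1 rise and 11 falls of 29 in RasV12 cells and 2 rises and 18 falls of 29 in ASZ cells, and with length subtracted 3 and 7 in RasV12 cells and 9 and 8 in ASZ cells. Rises and falls made up 18.7% and 24.4% of all genes in RasV12 cells and 14.0% and 42.4% in ASZ cells. With length subtracted they made up 17.0% and 20.5% in RasV12 cells and 22.9% and 24.9% in ASZ cells.

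Among single effectors, Rab11fip3, which binds Rab11, had 3.10 FPKM in RasV12 CBD, against 14.6 FPKM in RasV12 DMSO (log2 ratio -2.24, adjusted p 3.2e-04), and 1.61 FPKM in ASZ CBD, against 16.1 FPKM in ASZ DMSO (log2 ratio -3.33). Ehbp1, which links endosomes with actin, had 1.01 FPKM in RasV12 CBD, against 6.16 FPKM in RasV12 DMSO (log2 ratio -2.61, adjusted p 3.2e-04), and 0.404 FPKM in ASZ CBD, against 6.08 FPKM in ASZ DMSO (log2 ratio -3.91). For the ASZ falls of these 2 genes the authors' deposited table lists a p-value of 0. Rph3al, an effector in secretion, rose in both lines, at 36.2 FPKM in RasV12 CBD, against 13.3 FPKM in RasV12 DMSO (adjusted p 3.2e-04), and 20.6 FPKM in ASZ CBD, against 10.7 FPKM in ASZ DMSO (adjusted p 6.3e-04). Optn, a Rab8 effector, rose in ASZ cells, at 3.92 FPKM with CBD, against 2.06 FPKM with DMSO (adjusted p 0.012), and had an adjusted p of 0.35 in RasV12 cells. Among the GTPase-activating proteins, Tbc1d30 had 1.01 FPKM in ASZ CBD, against 10.5 FPKM in ASZ DMSO (log2 ratio -3.38, deposited p-value of 0 in the authors' deposited table). It also fell in RasV12 cells, at 1.15 FPKM with CBD, against 4.03 FPKM with DMSO (log2 ratio -1.81, adjusted p 3.2e-04). Tbc1d4 had 0.282 FPKM in RasV12 CBD, against 1.73 FPKM in RasV12 DMSO (log2 ratio -2.62, adjusted p 3.2e-04). It also fell in ASZ cells, at 0.135 FPKM with CBD, against 1.17 FPKM with DMSO (log2 ratio -3.12, adjusted p 4.7e-09). Tbc1d19 rose in RasV12 cells, at 20.6 FPKM with CBD, against 10.2 FPKM with DMSO (adjusted p 0.0046), and had an adjusted p of 0.35 in ASZ cells.

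Start-site windows were at hand for 35 of the 42 Rab genes, and 6 motifs were searched in them on both strands, beside 27025 genes in all. The AP-1 site TGANTCA stood in 2 Rab genes (Rab15 and Rab34), and in 8.97% of all genes. The cyclic AMP response element TGACGTCA stood in 2 (Rab5a and Rab25), and in 2.03% of all. The E-box CACGTG stood in 5 (Rab5a, Rab20, Rab21, Rab23 and Rab24), and in 8.09% of all. The Gli site GACCACCCA stood in 1 (Rab31), and in 0.289% of all, the ETS site CCGGAAGT in 2 (Rab11a and Rab24), and in 4.31% of all, and the TATA box TATAAA in 1 (Rab7), and in 15.7% of all. These are matches of letters only.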

How the data were processed

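RNA-seq libraries from 8 samples in 4 groups were used as 2 deposited tables, 1 per line. The authors used TopHat and Cufflinks on mm9, per the submitters' processing notes, with versions, counting and the test not given in the sources used here. Each deposited table held 1 FPKM value per group over its 2 libraries, per the file headers, and the authors' p-value of CBD against DMSO. The p-values of the RasV12 table stood in steps of 5e-05, while 554 genes of the ASZ table were listed at 0. Left out were 199 nameless rows of the ASZ table and 26 rows of each table named by a date, and a repeated symbol was used only if every other row was under 10% of the highest.

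From these, p-values were adjusted by the Benjamini-Hochberg method over every tested gene that reached 1 FPKM in a group, and called under 0.05. The standard error is the log2 FPKM ratio over the normal quantile of p. Where p was 0 or the lowest of its table it is an upper bound, set from the lowest p above 0. That setting was put in place after a first run had taken p of 0 as 1e-300. Transcript lengths came from GENCODE and promoters from RefSeq. The longest protein-coding transcript of a gene was used, or its longest transcript where none was protein-coding. The annotation behind the authors' FPKM is not given and may differ. The steps were tested on simulated data (Python 3.11.15, pandas 2.3.3, scipy 1.17.1). Members, role lists and regulator lists were chosen with earlier results of these data known. All members are named. Full statistics were given to Rab8a, Rab11a, Rab23 and the 4 largest called rises and falls of each line, and of the regulators the 3 largest called changes each way were named, except that 1 is not reported here. Alternatives were scaling, length, filter, pseudocount and repeated symbols. The genes listed under older names, 5430435G22Rik (Rab7b) and Rab7l1 (Rab29), fall outside the symbol rule and are given among the other observations.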

Additional observations from a re-analysis of the deposited data

Results flagged for a closer look

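For 6 regulators of Rab proteins the response to CBD differed between the lines at an adjusted p under 0.05 (two-sided normal test on implied standard errors, 93 regulators tested in both lines and adjustment over all genes). Each difference is the log2 ratio of RasV12 cells minus that of ASZ cells, and all 6 were higher in RasV12 cells. That is 6.45% of the regulators, beside 9.23% of all genes, and the median difference of all genes was itself 0.41. The difference was 1.30 (SE 0.44, adjusted p 0.039) for Rabgef1, an exchange factor of Rab5, and 1.44 (SE 0.50, adjusted p 0.046) for Dennd4a, another exchange factor. Among the GTPase-activating proteins it was 1.79 (SE 0.41, adjusted p 7.5e-04) for Sgsm2, 1.20 (SE 0.38, adjusted p 0.026) for Tbc1d5, 1.16 (SE 0.35, adjusted p 0.017) for Tbc1d9b and 2.21 (SE 0.50, adjusted p 6.3e-04) for Tbc1d16. Sgsm2 had 8.80 FPKM in RasV12 CBD, against 6.05 FPKM in RasV12 DMSO, and 3.16 FPKM in ASZ CBD, against 7.504 FPKM in ASZ DMSO. Tbc1d16 had 1.95 FPKM in RasV12 CBD, against 1.83 FPKM in RasV12 DMSO, and 0.638 FPKM in ASZ CBD, against 2.77 FPKM in ASZ DMSO. Of the 6 differences, 4 were still called with equal FPKM sums, 2 (Sgsm2 and Tbc1d16) with equal fragment mass and 0 with the length bin median subtracted. The part of scaling and length in these differences was not tested further. The errors were implied by p-values that differ in kind between the lines, so they may not measure the same spread.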

How the results depend on the processing

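Scaling and length moved counts by over 1.5 times, and filters moved them by less. With equal FPKM sums 1 Rab gene rose and 17 fell in RasV12 cells (median log2 change -0.39 on the log2(FPKM + 1) scale, beside 0.19 as deposited), and 1 rose and 21 fell in ASZ cells (median -0.52, beside -0.07). With equal fragment mass 3 rose in RasV12 cells, with a median of -0.21. With the length bin median subtracted 14 rose and 6 fell in ASZ cells, with a median of 0.29, and 4 ASZ values turned their sign across a call: Rab11b to 1.04, Rab18 to 0.99, Rab21 to 0.31 and Rab30 to 0.62. Of the regulators, 1 rose in each line with equal sums, 1 in RasV12 cells and 3 in ASZ cells rose with equal mass, and with length subtracted 22 fell in RasV12 cells while 23 rose and 23 fell in ASZ cells. The cause of these moves beyond the scaling itself was not tested. Without centring, the median difference of the lines under CBD was 0.47. A 5 FPKM minimum left 8 Rab falls in each line and 27 regulator falls in RasV12 cells and 38 in ASZ cells, and leaving out repeated symbols left 9 Rab falls and 53 regulator falls in ASZ cells, since fewer genes were tested. At 5 FPKM the Rab genes tested numbered 37 in RasV12 cells and 35 in ASZ cells. Shares of all genes called were not worked out for these settings, so the counts cannot be set against them. Neither setting, nor no filter on low values, changed the call of a Rab gene that stayed in the test, nor did adding the ASZ row of Rab22a nearest to its RasV12 level, chosen after seeing the data. The difference between lines was called for 0 Rab genes under every alternative run.

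The handling of p-values of 0 was changed after results were seen. With p of 0 taken as 1e-300, which gives standard errors that are too small, 1073 genes differed between the lines in place of 960, and 8 regulators in place of 6, with Tbc1d30 and Plekhm1 added, while 0 Rab genes differed either way.

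No paired analysis was possible because the tables hold 1 value per group. Leaving out each replicate could not be run for the same reason. The depth of the libraries is unknown, which limits statements on low genes such as Rab23, Rab8b and Rab27b.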

Other observations

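Rab genes that the tables list under older symbols gave further values. Rab29, listed as Rab7l1, had 3.48 FPKM in RasV12 CBD, against 9.66 FPKM in RasV12 DMSO (adjusted p 0.0053), and 3.79 FPKM in ASZ CBD, against 6.11 FPKM in ASZ DMSO (adjusted p 0.099). Rab7b, listed as 5430435G22Rik, had 0.774 FPKM in ASZ CBD, against 1.96 FPKM in ASZ DMSO (adjusted p 0.0044). In RasV12 cells it had 0.298 FPKM with CBD, against 0.841 FPKM with DMSO, and was below the minimum for a test.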
